A study of Homo sapiens with 6 samples.

Results

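The genes described here are 10 transcription factors and cofactors that govern red cell development: GATA1, GATA2, ZFPM1, TAL1, LMO2, LDB1, KLF1, NFE2, GFI1B and MYB. They were taken by name, and the estimated reads and TPM (a level relative to the library's total and corrected for transcript length) of all their transcripts were summed in each library. They are 10 of the 33367 genes that could be summed, and all 10 were among the 14075 genes left by the filter on low counts. The libraries come from K562, an established human erythroleukaemia cell line that carries the BCR-ABL fusion and makes embryonic and fetal globins. The study set out to compare K562 cells depleted of CDAN1, the gene mutated in a congenital dyserythropoietic anaemia, with cells that keep it.

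Each of 3 puromycin-selected K562 clones was cultured with and without doxycycline and gave 1 library of each state. Clones c1 and c2 carry a doxycycline-inducible short hairpin RNA (shRNA) against CDAN1, and clone NT carries a non-targeting shRNA in its place. The 4 groups are therefore induced CDAN1 shRNA cells at 1 µg/ml doxycycline (c1 and c2), the same clones uninduced, induced NT and uninduced NT. All cultures were taken at day 4 and all were kept in 2 µg/ml puromycin. Each clone stands for itself only, so a difference between clones concerns these clones and cannot be told apart from clone-to-clone variation. All p-values below rest on the spread among these 6 libraries alone, and the induced and uninduced library of a clone share that clone.

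GATA factors bind the sequence AGATAA or TGATAA and their relatives; GATA2 acts in blood progenitors and is displaced by GATA1 as red cell precursors mature, a handover that needs the GATA1 cofactor ZFPM1 (FOG1). TAL1, LMO2 and LDB1 form a bridging complex that joins GATA1 on DNA, KLF1 binds the CACCC boxes of globin genes, and NFE2 pairs with small MAF proteins at the globin locus control region. GFI1B is a repressor of progenitor genes, and MYB keeps progenitors dividing and falls as they mature.

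Depth was 28318555 to 32352246 estimated reads a library, of which 4.03% to 5.73% lay on mitochondrially encoded transcripts. The knockdown was seen in the libraries labelled for it: CDAN1 counts after doxycycline were 45.8% of the uninduced value in c1, 53.7% of it in c2 and 112.3% of it in NT. In CPM (counts relative to the library's total), CDAN1 stood at 17.0 in induced and 37.0 in uninduced c1. It stood at 29.8 and 55.4 in induced and uninduced c2, and at 70.2 and 62.5 in induced and uninduced NT. Uninduced c1 thus lay below the other uninduced libraries, and both CDAN1 shRNA clones lay below NT in each state. The controls are therefore not equal in CDAN1, nor are the clones. The erythroid identity of the line held in each library, with 15 of 15 erythroid markers detected and a summed level of 43720 TPM in induced and 40900 TPM in uninduced c1, 33200 and 29660 TPM in induced and uninduced c2, and 44630 and 40570 TPM in induced and uninduced NT. Markers of other lineages summed far lower, at 24.3 to 70.3 TPM for 10 lymphoid genes, 75.8 to 161 TPM for 14 granulocyte and monocyte genes and 177 to 367 TPM for 15 megakaryocyte genes. The 10 fibroblast and epithelial genes summed to 615 to 847 TPM, with the keratin gene KRT8 among them at 287 to 469 TPM.

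The 4 genes whose level spread most over the 6 libraries were GFI1B, GATA2, MYB and KLF1, and the sequence around their annotated starts is shown here because their clone differences lead the results. The windows are RefSeq's on GRCh38.p14 and run from 250 bases before to 50 bases after a start, read along the gene's own strand; 8 of the 10 genes had a window in that table, all but LMO2 and NFE2. Capitals mark AGATAA and its variant TGATAA, and the CACCC-type motif CCNCNCCC on either strand.
GFI1B, first start (chr9:132945281-132945580, plus strand): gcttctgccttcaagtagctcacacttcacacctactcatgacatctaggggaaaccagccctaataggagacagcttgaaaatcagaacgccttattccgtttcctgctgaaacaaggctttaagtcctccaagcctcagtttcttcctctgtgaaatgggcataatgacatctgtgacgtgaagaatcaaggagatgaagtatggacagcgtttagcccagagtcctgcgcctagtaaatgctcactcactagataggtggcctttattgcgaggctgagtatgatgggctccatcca
GFI1B, second start (chr9:132978444-132978743, plus strand): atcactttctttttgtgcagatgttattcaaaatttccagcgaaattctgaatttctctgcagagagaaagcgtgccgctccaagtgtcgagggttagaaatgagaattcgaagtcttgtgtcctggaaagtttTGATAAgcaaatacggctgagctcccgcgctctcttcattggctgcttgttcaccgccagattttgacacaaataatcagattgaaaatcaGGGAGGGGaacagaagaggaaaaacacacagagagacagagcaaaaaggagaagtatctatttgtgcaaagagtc
GATA2, first start (chr3:128493152-128493451, minus strand): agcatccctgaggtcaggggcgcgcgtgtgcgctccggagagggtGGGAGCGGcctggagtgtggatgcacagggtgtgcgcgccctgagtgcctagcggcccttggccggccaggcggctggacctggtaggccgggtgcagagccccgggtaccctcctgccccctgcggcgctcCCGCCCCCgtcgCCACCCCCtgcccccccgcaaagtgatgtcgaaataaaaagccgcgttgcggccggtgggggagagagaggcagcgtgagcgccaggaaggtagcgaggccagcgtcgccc
GATA2, second start (chr3:128488481-128488780, minus strand): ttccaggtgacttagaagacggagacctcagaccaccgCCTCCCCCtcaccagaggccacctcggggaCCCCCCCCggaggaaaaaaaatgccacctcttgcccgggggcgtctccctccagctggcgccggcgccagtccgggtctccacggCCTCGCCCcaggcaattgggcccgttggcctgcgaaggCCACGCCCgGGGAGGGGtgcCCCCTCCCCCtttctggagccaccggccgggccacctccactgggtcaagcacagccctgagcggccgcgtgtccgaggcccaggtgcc
KLF1, start (chr19:12887152-12887451, minus strand): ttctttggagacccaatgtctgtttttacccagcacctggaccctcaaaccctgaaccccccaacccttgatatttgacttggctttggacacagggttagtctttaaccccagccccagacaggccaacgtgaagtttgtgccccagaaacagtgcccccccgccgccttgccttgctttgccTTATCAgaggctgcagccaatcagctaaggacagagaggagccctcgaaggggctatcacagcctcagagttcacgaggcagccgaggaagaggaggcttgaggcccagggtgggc
MYB, start (chr6:135181058-135181357, plus strand): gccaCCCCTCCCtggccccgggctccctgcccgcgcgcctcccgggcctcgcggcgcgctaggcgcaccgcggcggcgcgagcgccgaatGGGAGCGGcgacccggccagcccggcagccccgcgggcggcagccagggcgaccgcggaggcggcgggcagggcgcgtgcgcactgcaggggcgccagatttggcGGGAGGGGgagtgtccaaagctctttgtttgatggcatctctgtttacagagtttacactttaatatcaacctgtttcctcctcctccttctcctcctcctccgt

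A match to AGATAA or TGATAA lay 66 bases before the KLF1 start and 116 bases before the second GFI1B start. None lay in either GATA2 window or in the MYB window. Related GATA forms were not searched, among them AGATAG, whose letters stand in the first GFI1B window. Both GATA2 windows held CCNCNCCC, with 3 matches at the first start and 7 at the second, as did the MYB window with 3, whereas the KLF1 window held none. Over the 11 windows of the 8 genes, 3 held AGATAA or TGATAA, against 16.3% of the 35116 windows in the table, and 8 held CCNCNCCC, against 56.2%. The other GATA match lay 35 bases before a TAL1 start. The E-box form CANNTG, the site type of TAL1, was in 5 of the 11 windows and in 68.7% of all windows, and no match of one of the 3 motif types overlapped one of another in the 11. These are letter matches, not measured binding.

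The levels spanned a wide range, with GATA1 at the top and GFI1B at the bottom in each library. GATA1 was highest, at 294 TPM in induced and 273 TPM in uninduced c1, 307 TPM in induced and 331 TPM in uninduced c2, and 275 TPM in induced and 289.6 TPM in uninduced NT. These 6 values do not overlap those of any other of the 10 genes, and their highest is 1.21 times their lowest. NFE2 followed, at 208 TPM in induced and 201 TPM in uninduced c1, 191 TPM in induced and 186 TPM in uninduced c2, and 224 TPM in induced and 209.9 TPM in uninduced NT. KLF1 stood at 169 TPM in induced and 131 TPM in uninduced c1, 142 TPM in induced and 136 TPM in uninduced c2, and 192 TPM in induced and 167 TPM in uninduced NT. NFE2 stood above KLF1 in 6 of 6 libraries although their ranges overlap.

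**Figure D1:**
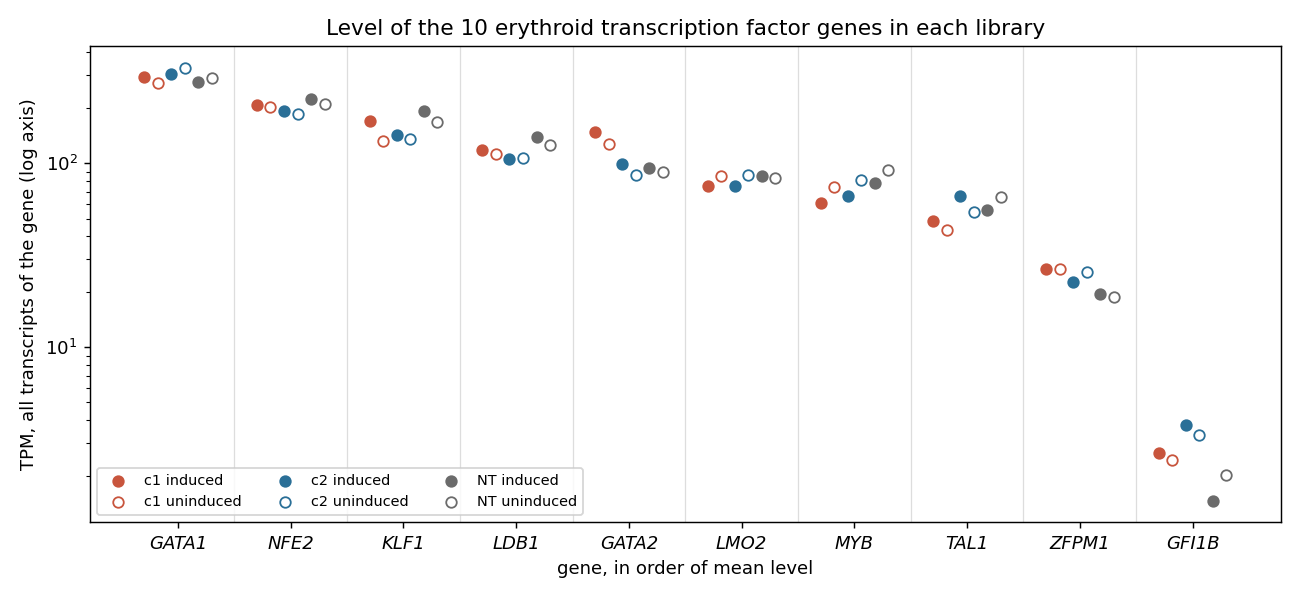
Each point is the summed TPM of 1 gene in 1 library, on a log axis, with genes in order of mean level; filled points are induced and open points uninduced libraries. GATA1 lies highest at 273 to 331 TPM and GFI1B lowest at 1.46 to 3.75 TPM, and the red points of c1 stand above the others for GATA2.

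In the bridging complex, LDB1 was the most abundant and TAL1 the least. LDB1 stood at 118 TPM in induced and 112 TPM in uninduced c1, 105 TPM in induced and 107 TPM in uninduced c2, and 138 TPM in induced and 125 TPM in uninduced NT. LMO2, its bridging subunit, stood at 75.3 TPM in induced and 85.1 TPM in uninduced c1, 75.1 TPM in induced and 86.7 TPM in uninduced c2, and 85.3 TPM in induced and 82.9 TPM in uninduced NT. TAL1, its DNA-binding subunit, stood at 48.7 TPM in induced and 43.2 TPM in uninduced c1, 66.2 TPM in induced and 54.1 TPM in uninduced c2, and 55.7 TPM in induced and 65.2 TPM in uninduced NT. The ranges of the 3 did not overlap. Between LDB1 and GATA2, GATA2 and LMO2, LMO2 and MYB, and MYB and TAL1, the ranges overlapped. Within a library the order of means held in 4, 5, 5 and 6 of 6 libraries for these pairs.

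ZFPM1 and GFI1B lay below the rest. ZFPM1 stood at 26.7 TPM in induced and 26.6 TPM in uninduced c1, 22.6 TPM in induced and 25.5 TPM in uninduced c2, and 19.4 TPM in induced and 18.7 TPM in uninduced NT. GFI1B stood at 2.66 TPM in induced and 2.44 TPM in uninduced c1, 3.75 TPM in induced and 3.33 TPM in uninduced c2, and 1.46 TPM in induced and 2.03 TPM in uninduced NT. All 12 values are below the lowest TAL1 value of 43.2 TPM, and GFI1B rested on 79 to 222 estimated reads a library. Counted over protein-coding transcripts alone, GATA1, NFE2, KLF1, LDB1 and GATA2 kept their places, MYB (mean 62.5 TPM) moved above LMO2 (46.3 TPM), the ranges of KLF1 and LDB1 no longer overlapped, and those of LMO2 (42.2 to 48.7 TPM) and TAL1 (34.2 to 44.2 TPM) did.

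GATA1 was made from a single transcript form. GATA1-202, which encodes the full-length protein of 413 residues, held 99.6% to 100% of GATA1 TPM, and the other annotated transcript, GATA1-201, held the remainder. The gene lies on chromosome X, 48786554 to 48794311 on GRCh38. KLF1 (chromosome 19, 12884422 to 12887199) has 1 transcript in the files, with 362 residues. ZFPM1 (chromosome 16, 88453317 to 88537016) was carried by ZFPM1-201 at 95.1% to 99.1% of its TPM.

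GATA2 used several starts. The gene lies on chromosome 3, 128479427 to 128493185 on GRCh38, on the minus strand. Of its coding TPM, the first start (GATA2-201 and a minor coding form) gave 50.3% in induced and 49.8% in uninduced c1, 45.8% in induced and 46.0% in uninduced c2, and 46.3% in induced and 53.5% in uninduced NT. The second RefSeq start, used by GATA2-203 and 4655 bases downstream of the first, gave 35.0% in induced and 37.5% in uninduced c1, 45.6% in induced and 37.2% in uninduced c2, and 33.8% in induced and 25.1% in uninduced NT. GATA2-201 and GATA2-203 encode the same 480 residues. The share of GATA2-202, which starts 5269 bases downstream of the first start and encodes 466 residues, was 7.78% to 18.8%. A 2-exon transcript without a reading frame, GATA2-204, held a further 23.4% to 37.8% of the gene's TPM, and the division of reads among these overlapping transcripts is Salmon's estimate.

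LMO2, LDB1 and NFE2 also had more than 1 start. For LMO2 (chromosome 11, 33858576 to 33892289) the start 22473 bases downstream, of the 158-residue form LMO2-202, gave 81.0% to 86.7% of coding TPM, and LMO2-201 with 227 residues gave the rest. A transcript of 390 bases without a reading frame, LMO2-206, took 28.3% to 37.2% of all LMO2 TPM from 78 to 115 reads. For LDB1 (chromosome 10, 102107560 to 102120453) the 375-residue form LDB1-201 gave 73.9% in induced and 75.0% in uninduced c1, 71.9% in induced and 72.6% in uninduced c2, and 82.1% in induced and 76.1% in uninduced NT. The 411-residue form LDB1-202, from a start 5507 bases upstream, gave the rest. NFE2 (chromosome 12, 54292111 to 54301121) divided its coding TPM between a first start with 59.1% to 64.8% and a start 5361 bases downstream with 35.1% to 40.8%, both encoding 373 residues. The upstream LDB1 form held 25.0% to 28.1% in c1 and c2, against 17.9% in induced and 23.9% in uninduced NT; this difference was not tested.

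**Figure D2:**
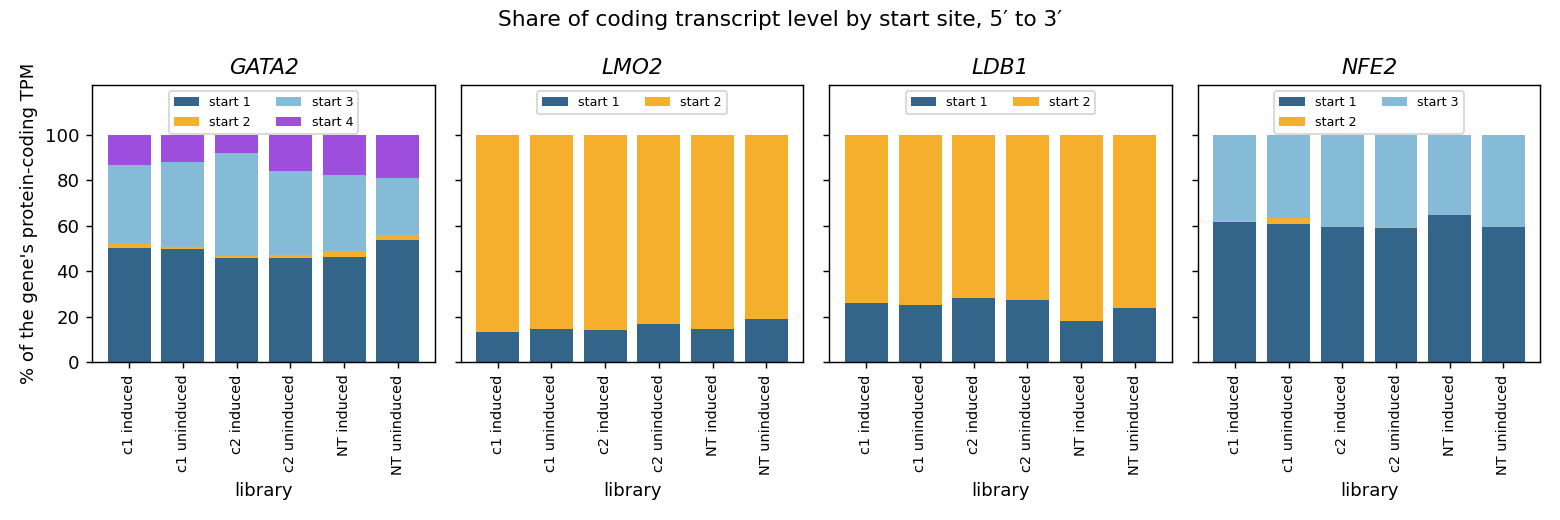
Bars give the percent of each gene's protein-coding TPM that came from each annotated start, numbered 5′ to 3′, in the 6 libraries. The second start supplies 81.0% to 86.7% for LMO2 and 71.9% to 82.1% for LDB1, and starts 1 and 3 supply most of GATA2.

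TAL1, GFI1B and MYB complete the transcript picture. TAL1 (chromosome 1, 47216290 to 47232220) had 95.5% to 100% of its coding TPM on TAL1-202, the 331-residue form. A TAL1 transcript of 237 bases, TAL1-204, took 13.2% to 28.1% of the gene's TPM from 5.6 to 15.5 reads, because TPM weighs short transcripts heavily. The tests of all genes used counts, given below as CPM (counts relative to the library's total, without length correction). GFI1B (chromosome 9, 132944000 to 132991687) had all its matched reads on GFI1B-201, which begins at the first window above. GFI1B-202 and GFI1B-203, which begin 33144 bases or more downstream, were at 0 in all 6 libraries. Only 3 of its 8 GENCODE transcripts were analysed here, and transcripts unmatched by identifier were not assigned to any gene. The level of GFI1B and its division between starts may therefore be incomplete. MYB (chromosome 6, 135181315 to 135219173) has 40 transcripts in the files, of which 25 had reads. MYB-205, which encodes 640 residues, held 41.8% in induced and 44.4% in uninduced c1, 44.1% in induced and 47.5% in uninduced c2, and 42.5% in induced and 46.2% in uninduced NT. MYB-203, the 761-residue form, held 18.0% in induced and 13.9% in uninduced c1, 13.3% in induced and 7.28% in uninduced c2, and 15.0% in induced and 9.95% in uninduced NT. In each clone the share of MYB-203 was higher and that of MYB-205 lower in the induced library, at 1 library a state and without a test.

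Several of the 10 factors differed between clones. With the doxycycline state as a term, edgeR called 27.8% of the 14075 genes between c1 and NT (13.8% higher and 14% lower in c1), 21.1% between c2 and NT (11.8% higher, 9.21% lower in c2) and 26.8% between c2 and c1 (14.9% higher, 11.9% lower in c2). Of the 10 factors, 5 were called in c1 against NT (2 higher, 3 lower), 6 in c2 against NT (2 higher, 4 lower) and 3 in c2 against c1 (0 higher, 3 lower). Without a term for doxycycline these counts were 2 (2 higher, 0 lower), 4 (1 higher, 3 lower) and 1 (0 higher, 1 lower). That fit called 20.7%, 15.1% and 20.3% of all tested genes. The first 2 of these comparisons share the NT libraries. The median log2 fold change of the 10 was −0.10, −0.12 and −0.10 in that order, beside 0.00, 0.00 and −0.01 over all tested genes. In these bulk libraries, fewer cells of a type and less RNA per cell cannot be told apart.

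GATA2 set clone c1 apart. The gene was counted at 278 CPM in induced and 225 CPM in uninduced c1, 164 CPM in induced and 150.5 CPM in uninduced c2, and 177 CPM in induced and 173 CPM in uninduced NT. Both c1 libraries lie above the 4 others, and the c2 and NT ranges do not overlap, with c2 the lower. GATA2 was higher in c1 than in NT by 0.52 ± 0.07 on the log2 scale (approximate SE, 2 libraries against 2, adjusted p = 0.00203, edgeR). It was lower in c2 than in c1, with a log2 fold change of −0.67 ± 0.07 (adjusted p = 0.000518, edgeR). Both calls held when any 1 library was left out. Against NT, c2 had −0.16 ± 0.07 (adjusted p = 0.157, edgeR), which did not pass, although it did without induced c1 or without uninduced c1 (adjusted p = 0.0450 and 0.0447, edgeR).

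GATA1, its counterpart in the handover, was not called in any of the 3 clone comparisons. Its counts came to 338 CPM in induced and 315 CPM in uninduced c1, 341 CPM in induced and 363 CPM in uninduced c2, and 313 CPM in induced and 340.4 CPM in uninduced NT. Both c2 values are the highest, by less than 1 CPM over uninduced NT, and c1 and NT overlap. The log2 fold change was 0.00 ± 0.06 in c1 against NT, 0.11 ± 0.06 in c2 against NT and 0.11 ± 0.06 in c2 against c1 (adjusted p = 1, 0.284 and 0.266, edgeR), the last of which passed without induced c1 at 0.21 (adjusted p = 0.0332). Its log2 CPM ranged over 0.21 across the 6 libraries (percentile 9.3 of the ranges of all tested genes), while that of GATA2 ranged over 0.88 (percentile 69.8). The ratio of GATA1 to GATA2 in TPM, added after the levels were seen, was 2.00 in induced and 2.14 in uninduced c1, 3.11 in induced and 3.82 in uninduced c2, and 2.94 in induced and 3.22 in uninduced NT. Over coding transcripts alone it was 2.81 and 3.43 in induced and uninduced c1, 5.00 and 5.58 in induced and uninduced c2, and 3.83 and 4.34 in induced and uninduced NT. On both scales the c1 ratios are the lowest of the 6.

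ZFPM1, the cofactor, was higher in both CDAN1 shRNA clones. ZFPM1 reached 123 CPM in induced and 120.2 CPM in uninduced c1, 99.7 CPM in induced and 111 CPM in uninduced c2, and 90.5 CPM in induced and 87.7 CPM in uninduced NT. All 4 values of c1 and c2 exceed both NT values. The difference from NT was 0.45 ± 0.07 in c1 (adjusted p = 0.00323, edgeR) and 0.24 ± 0.07 in c2 (adjusted p = 0.0411, edgeR). The c1 call held with any 1 library left out. The c2 call was lost without uninduced NT (adjusted p = 0.276), without induced NT (0.0705) or without uninduced c2 (0.385, log2 fold change 0.15), and without a term for doxycycline (0.0628) or with DESeq2 (0.0520).

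**Figure D3:**
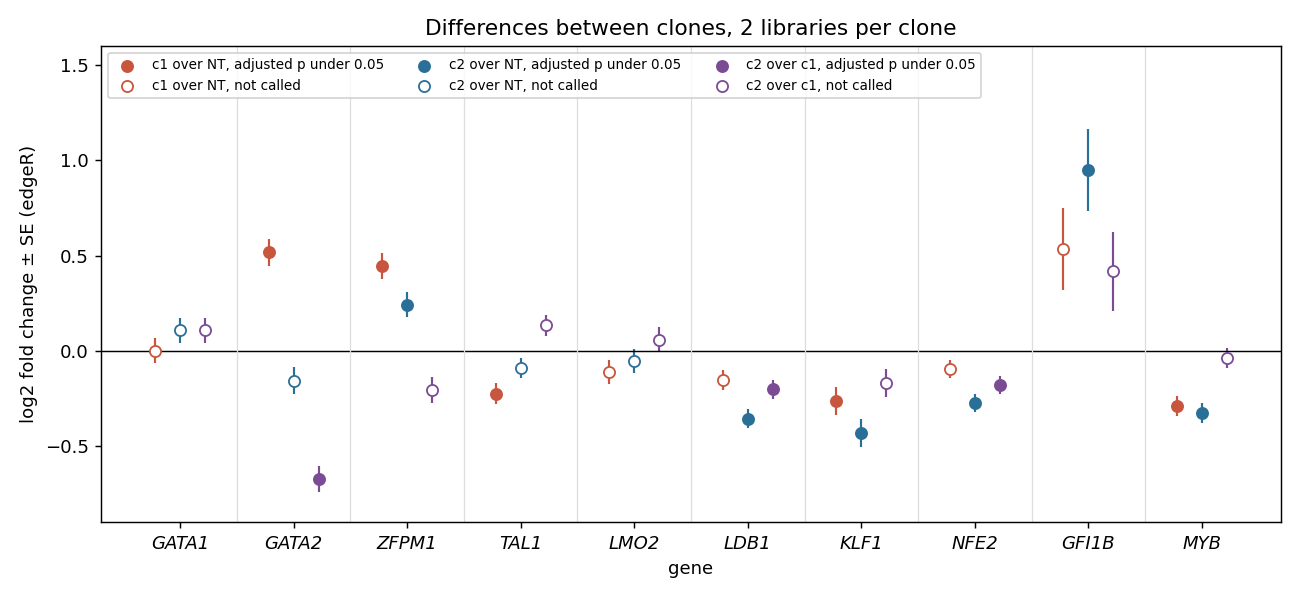
Points are edgeR log2 fold changes with their approximate SE for the 10 genes in 3 comparisons of clones. They are filled where the adjusted p over all tested genes is under 0.05. GATA2 stands at 0.52 in c1 over NT and at −0.67 in c2 over c1, while KLF1 and MYB lie below 0 in both clones over NT.

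KLF1 was lower in both CDAN1 shRNA clones than in NT. KLF1 had 210.1 CPM in induced and 163 CPM in uninduced c1, 169.6 CPM in induced and 161 CPM in uninduced c2, and 235 CPM in induced and 211 CPM in uninduced NT. All 4 values of c1 and c2 lie below both NT values, though induced c1 is close to uninduced NT. The log2 fold change was −0.43 ± 0.07 in c2 against NT (adjusted p = 0.00601, edgeR) and −0.26 ± 0.07 in c1 against NT (adjusted p = 0.0322, edgeR). Leaving out induced c2 moved the c2 call past the threshold (adjusted p = 0.0539), and the c1 call was lost without uninduced NT (0.156), induced NT (0.0600) or uninduced c1 (0.140, log2 fold change −0.14), and without a term for doxycycline (0.157). KLF1 did not pass between c2 and c1 (−0.17 ± 0.07, adjusted p = 0.132, edgeR), but did without uninduced c1 at −0.29 (0.0180).

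MYB was likewise lower in both. MYB had 154 CPM in induced and 190.4 CPM in uninduced c1, 154 CPM in induced and 181 CPM in uninduced c2, and 194 CPM in induced and 225 CPM in uninduced NT. All 4 values of c1 and c2 lie below both NT values, with uninduced c1 at 190.4 CPM under induced NT at 194 CPM. The log2 fold change was −0.29 ± 0.05 in c1 (adjusted p = 0.00646, edgeR) and −0.32 ± 0.05 in c2 (adjusted p = 0.00482, edgeR), and both held with any 1 library left out. Without a term for doxycycline neither passed (adjusted p = 0.146 and 0.126, edgeR). Between c2 and c1 MYB differed by −0.04 ± 0.05.

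Of the bridging complex, LDB1 and TAL1 differed between clones and LMO2 was not called. LDB1 was at 211 CPM in induced and 201 CPM in uninduced c1, 179 CPM in induced and 179 CPM in uninduced c2, and 236 CPM in induced and 222 CPM in uninduced NT. LDB1 was lowest in c2, whose 2 values lie below the other 4, and highest in NT. It had −0.36 ± 0.05 in c2 against NT (adjusted p = 0.00302, edgeR), a call that held with any 1 library left out, and −0.20 ± 0.05 in c2 against c1 (adjusted p = 0.0245, edgeR). The call of c2 against c1 was lost without induced c1 (0.0630), uninduced c2 (0.114) or induced c2 (0.342), and without a term for doxycycline (0.0527), and c1 against NT stood at −0.15 ± 0.05 (adjusted p = 0.0603, edgeR).

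TAL1 was at 161 CPM in induced and 140.1 CPM in uninduced c1, 175 CPM in induced and 155 CPM in uninduced c2, and 181 CPM in induced and 171 CPM in uninduced NT. TAL1 was lower in c1 than in NT by this measure, with −0.22 ± 0.05 (adjusted p = 0.0208, edgeR), and both c1 values lie below both NT values. The call was lost without uninduced NT (adjusted p = 0.181) or uninduced c1 (0.0826), and without a term for doxycycline (0.121). TAL1 had −0.09 ± 0.05 in c2 against NT and 0.13 ± 0.05 in c2 against c1, neither of which passed. LMO2 was at 68.3 CPM in induced and 77.8 CPM in uninduced c1, 72.8 CPM in induced and 79.2 CPM in uninduced c2, and 76.8 CPM in induced and 80.9 CPM in uninduced NT. The LMO2 clones overlap, and its log2 fold changes were −0.11 ± 0.06, −0.05 ± 0.06 and 0.06 ± 0.06 in c1 against NT, c2 against NT and c2 against c1.

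NFE2 was lower in c2. NFE2 had 281 CPM in induced and 270.4 CPM in uninduced c1, 248 CPM in induced and 239 CPM in uninduced c2, and 299.98 CPM in induced and 289 CPM in uninduced NT. Both c2 values lie below the other 4. The log2 fold change was −0.27 ± 0.05 against NT (adjusted p = 0.00689, edgeR) and −0.18 ± 0.05 against c1 (adjusted p = 0.0287, edgeR). The call against NT was lost without uninduced c2 (0.0666) or induced c2 (0.0875), and that against c1 was lost without any 1 library but uninduced NT (adjusted p = 0.0514 to 0.281), without a term for doxycycline (0.0672) and with DESeq2 (0.0554).

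GFI1B, the repressor, was higher in c2. GFI1B had 5.42 CPM in induced and 4.95 CPM in uninduced c1, 7.37 CPM in induced and 6.48 CPM in uninduced c2, and 2.96 CPM in induced and 4.22 CPM in uninduced NT. The 3 clones do not overlap, with c2 highest and NT lowest. It was higher in c2 than in NT by 0.95 ± 0.21 (adjusted p = 0.0187, edgeR), and the call was lost without induced NT, at 0.63 (adjusted p = 0.119), or without induced c2 (0.115). In c1 against NT it had 0.53 ± 0.22 (adjusted p = 0.106, edgeR), which passed without uninduced NT at 0.88 (0.0441), and in c2 against c1 0.42 ± 0.21 (0.181).

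The genes whose pattern over the 6 libraries was nearest to each of the 4 most variable factors were found by the root mean square (RMS) difference of centred log2 CPM. For GATA2 these were APOE, which encodes apolipoprotein E, at 0.057 and GLB1, which encodes lysosomal beta-galactosidase, at 0.057. For MYB they were HIST1H2BD, a histone H2B gene, at 0.034 and PHOSPHO2 at 0.052. For KLF1 they were TMEM250 at 0.037 and ALKBH2, a DNA repair enzyme of alkylation damage, at 0.044. For GFI1B they were COL6A3, a collagen chain, at 0.069 and GOLM1, a Golgi membrane protein, at 0.101. Over 6 libraries such likeness is a description.

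Partners of the bridging complex were called in both directions. Of 13 tested partners and paralogs of TAL1, LMO2 and LDB1, 6 were called in c1 against NT (3 higher, 3 lower). In c2 against NT 2 were called (both higher), and in c2 against c1 5 (4 higher, 1 lower). The shares called were 46.2%, 15.4% and 38.5%, beside 27.8%, 21.1% and 26.8% of all genes. Median log2 fold changes of the list were −0.02, 0.06 and −0.09. Of the 15 listed genes, 4 are also in the list of repressed or switched-off genes below, so the lists are not separate evidence. TCF12, an E protein that pairs with TAL1, was lower in c1 than in NT by −0.39 ± 0.06 and higher in c2 than in NT by 0.33 ± 0.06 (adjusted p = 0.00274 and 0.00603, edgeR). It stood at 26.5 and 27.3 TPM in induced and uninduced c1, 50.1 and 50.2 TPM in induced and uninduced c2, and 41.6 and 39.9 TPM in induced and uninduced NT. TCF4, another E protein, was higher in c1 than in NT by 0.54 ± 0.08 (adjusted p = 0.00279, edgeR) and had 0.01 ± 0.08 in c2 against NT. SSBP2, a single-stranded DNA binding partner of LDB1, was higher than in NT in c1 (0.49 ± 0.09) and in c2 (0.36 ± 0.09), and ETV6, an ETS repressor, was higher in c2 than in c1 (0.57 ± 0.10).

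Among 9 partners and relatives of NFE2, 2 were called in c1 against NT and 4 in c2 against NT, all lower. In c2 against c1 4 were called (2 higher, 2 lower). As shares of the list these are 22.2%, 44.4% and 44.4%, beside 27.8%, 21.1% and 26.8% of all genes. Medians of the list were −0.03, −0.01 and −0.08. MAFG, a small MAF partner, was lower than in NT in c1 (−0.23 ± 0.07) and in c2 (−0.45 ± 0.07), as was BACH2, a repressor of the same site, at −0.62 ± 0.12 and −0.69 ± 0.12. MAFF and MAFK, the other small MAF genes, were higher in c2 than in c1 by 0.43 ± 0.12 and 0.38 ± 0.10. Of 26 corepressors and coactivators, 7, 4 and 7 were called in c1 against NT, c2 against NT and c2 against c1, with medians of −0.04, −0.01 and 0.02. These are 26.9%, 15.4% and 26.9% of the list, beside 27.8%, 21.1% and 26.8% of all genes, so the list is near or below the background. HES1, a repressor downstream of Notch, was higher than in NT in c1 (0.96 ± 0.09) and c2 (0.54 ± 0.09). SIN3A and CTBP1, scaffolds of corepressor complexes, were lower in c1 than in NT (−0.40 ± 0.06 and −0.42 ± 0.06), and RBBP7, a histone-binding subunit, was lower in c2 than in NT (−0.30 ± 0.05).

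Of 20 tested paralogs of the GATA, KLF, GFI and MYB families, 3 were called in c1 against NT (0 higher, 3 lower). In c2 against NT 2 were called (1 higher, 1 lower), and in c2 against c1 8 (6 higher, 2 lower). Against NT these shares, 15.0% in c1 and 10.0% in c2, lie under the 27.8% and 21.1% of all genes. In c2 against c1 the share was 40.0%, beside 26.8% of all genes. Medians of the paralogs were −0.06, 0.04 and 0.24. The 4 of largest called change were all scarce. GATA3, GATA4 and GATA6 reached at most 0.623 TPM and rested on 2 to 59 reads a library, and KLF4 reached 1.27 TPM.

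Genes known as targets of GATA1, TAL1 or KLF1 were called in both directions in c1 and lower in c2. Of 30 tested genes activated by these factors, 13 were called in c1 against NT (7 higher, 6 lower), 11 in c2 against NT (0 higher, 11 lower) and 19 in c2 against c1 (2 higher, 17 lower). Their median log2 fold changes were 0.02, −0.15 and −0.31. The list holds all 15 erythroid markers used above, so the 2 are not separate evidence. These counts stand beside backgrounds of 27.8%, 21.1% and 26.8% of all genes called.

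AHSP, the chaperone of alpha globin, stood at 7.09 and 7.94 TPM in induced and uninduced c1, 41.0 and 53.5 TPM in induced and uninduced c2, and 48.4 and 48.9 TPM in induced and uninduced NT. It was lower in c1 than in NT by −2.68 ± 0.16 (adjusted p = 6.68e-05, edgeR), and c2 against NT had −0.12 ± 0.14. EPB42, which encodes the membrane skeleton protein 4.2, was lower than in NT in c1 (−2.78 ± 0.32) and in c2 (−1.52 ± 0.29), from no more than 3.83 TPM. ALAS2, the first enzyme of haem synthesis in red cells, was higher in c1, at 277 and 214 TPM in induced and uninduced c1 against 125 and 110.3 TPM in induced and uninduced NT (0.96 ± 0.09, adjusted p = 0.000429, edgeR). HBA2, an alpha globin gene, was lower in c2, at 1336 and 1020 TPM in induced and uninduced c2 against 3059 and 2678 TPM in induced and uninduced NT (−1.43 ± 0.07). HBA1 and HBA2 are near-identical, so the division of reads between them is uncertain.

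**Figure D4:**
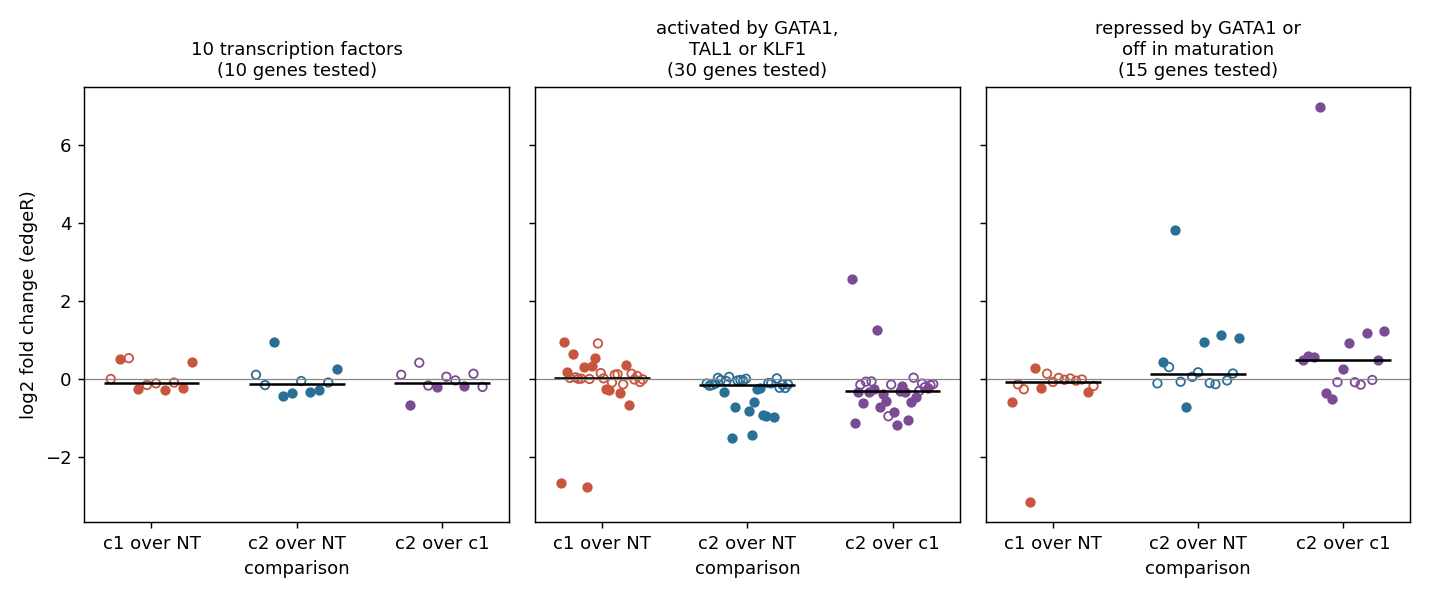
Each point is the edgeR log2 fold change of 1 tested gene in 1 comparison of clones, filled where the adjusted p is under 0.05, and black lines are medians. The 10 factors stay between −0.67 and 0.95, while the activated list has medians of 0.02, −0.15 and −0.31 and the repressed list reaches 6.99 for FLI1 in c2 over c1.

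Genes known to be repressed by GATA1 or to be switched off as red cells mature were mostly higher among those called in c2. Of 15 tested, 5 were called in c1 against NT (1 higher, 4 lower), 6 in c2 against NT (5 higher, 1 lower) and 11 in c2 against c1 (9 higher, 2 lower). That is 33.3%, 40.0% and 73.3% of the list, beside 27.8%, 21.1% and 26.8% of all genes. Medians of the list were −0.08, 0.14 and 0.49. FLI1, an ETS factor of the megakaryocyte lineage, stood at 0.030 and 0.093 TPM in induced and uninduced c1, 7.52 and 10.7 TPM in induced and uninduced c2, and 0.468 and 0.449 TPM in induced and uninduced NT. It was higher in c2 than in NT by 3.82 ± 0.23 (adjusted p = 6.22e-05, edgeR) and lower in c1 than in NT (−3.17 ± 0.39, adjusted p = 0.00132, edgeR), the last from 2 and 7 reads in induced and uninduced c1. SPI1, the myeloid factor PU.1, was higher in c2 than in NT (1.04 ± 0.23), as were the progenitor genes MEIS1 (1.13 ± 0.12) and KIT (0.96 ± 0.22).

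Markers of the megakaryocyte, the sister lineage that also uses GATA1, ZFPM1, NFE2 and GFI1B, also differed between the clones. Of 13 tested, 61.5%, 76.9% and 92.3% were called in c1 against NT, c2 against NT and c2 against c1. The shares of all genes called were 27.8%, 21.1% and 26.8%. Of these 13 markers, 8 were lower in c1 than in NT (0 higher) and 9 were higher in c2 than in NT (1 lower). In c2 against c1, 12 of these markers were higher (0 lower). Their medians were −1.49, 2.22 and 3.81, with the fitted value of GP9, which had no reads in c1; with GP9 at the bound set by 3 reads over both c1 libraries they were −1.45 and 3.81 in c1 against NT and c2 against c1. PPBP, a platelet chemokine, stood at 0 and 0.246 TPM in induced and uninduced c1, 11.95 and 15.6 TPM in induced and uninduced c2, and 1.16 and 1.21 TPM in induced and uninduced NT. GP9, a subunit of the platelet receptor for von Willebrand factor, was at 0 in both c1 libraries and at 2.93 and 2.51 TPM in induced and uninduced c2, against 0.194 and 0.063 TPM in induced and uninduced NT. SELP (P-selectin) stood at 7.57 and 8.61 TPM in induced and uninduced c2, against 0 and 0.397 TPM in induced and uninduced NT. PF4 (platelet factor 4) stood at 2.24 and 4.24 TPM in induced and uninduced c2, against 0.471 and 1.599 TPM in induced and uninduced NT. PF4 was not called in c2 against NT (1.64 ± 0.55, adjusted p = 0.071, edgeR). It rested there on 21 and 38 reads in induced and uninduced c2 and 4 and 14 in induced and uninduced NT. The 1 marker called lower in c2 than in NT is not among those named here. The summed level of the 15 markers was 188 and 177 TPM in induced and uninduced c1, 318 and 367 TPM in induced and uninduced c2, and 268 and 307 TPM in induced and uninduced NT. The part of these markers in the clone differences of the 10 factors was not tested.

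Of 11 tested lineage-opposing factors, 3 were lower in c1 than in NT (0 higher). In c2 against NT 5 were called (4 higher, 1 lower), and in c2 against c1 8 (6 higher, 2 lower). Their shares called were 27.3%, 45.5% and 72.7%, beside 27.8%, 21.1% and 26.8% of all genes. Of the 18 listed genes, 6 are also in the repressed list. Medians of the list were −0.18 in c1 against NT (−0.13 without PAX5, too scarce for a fold there), 0.14 and 0.25. PAX5, the B cell factor, was at 0 in both c1 libraries, at 0.157 and 0.173 TPM in induced and uninduced c2, and at 0.0099 and 0 TPM in induced and uninduced NT. IKZF3 was lower in c2 than in c1 (−1.48 ± 0.31), from 1.16 TPM or less. Of 7 tested granulocyte and monocyte markers, 2, 1 and 2 were called in c1 against NT, c2 against NT and c2 against c1. In the same order, 0, 1 and 1 of 2 tested lymphoid markers and 3, 4 and 5 of 5 tested fibroblast and epithelial markers were called. Over all genes the shares were 27.8%, 21.1% and 26.8%. CD33, a myeloid surface protein, was higher in c2 than in NT (1.34 ± 0.15), CD68, a lysosomal protein of macrophages, was lower in c1 than in NT (−1.76 ± 0.14), and CD3D, a subunit of the T cell receptor complex, was lower in c2 than in NT (−1.09 ± 0.15). COL1A2 and COL1A1, collagen chains at no more than 4.25 TPM, were higher in c2 than in NT (1.11 ± 0.26 and 0.90 ± 0.26), and EPCAM and KRT8, both epithelial, were lower (−1.08 ± 0.09 and −0.56 ± 0.08).

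None of the 10 factors passed the threshold with depletion of CDAN1. In the comparison named by the study, the 2 induced CDAN1 shRNA libraries against all 4 controls, edgeR called 0% of genes (322 had an unadjusted p under 0.05, and DESeq2 called 22) and 0.0426% with the clone as a replicate block. None of the 10 factors was called by edgeR in either fit. As edgeR called no gene without the block, CDAN1 itself was not called there, although its counts fell in c1 and c2. A factor that was not called is therefore not shown to be unchanged. MYB had the smallest p of the 10. It had 154 CPM in induced c1 and 154 CPM in induced c2, against 190.4 CPM in uninduced c1, 181 CPM in uninduced c2, 194 CPM in induced NT and 225 CPM in uninduced NT. Both knockdown values lie below all 4 controls, with a log2 fold change of −0.36 ± 0.10 (unadjusted p = 0.00980, adjusted p = 1, edgeR) and −0.27 ± 0.08 with the block (adjusted p = 0.291, edgeR). The others ranged from −0.16 ± 0.07 for LMO2 to 0.46 ± 0.33 for GFI1B. With the block, NT has a term of its own, so the estimate compares induced with uninduced c1 and c2 only. It is then the same contrast as the next comparison with the block, and cannot be told apart from a response to doxycycline. On that contrast ZFPM1 changed to −0.06, LDB1 to 0.03, KLF1 to 0.22 and NFE2 to 0.06. Each was of the opposite sign to its value without the block and none was called.

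Induced against uninduced CDAN1 shRNA clones gave 0% called without the block and 1% with it, with 0 of the 10 factors in either. The response of these clones minus that of NT gave 0% and 0.135%, again with 0 of the 10. Without the block CDAN1 itself was thus not called in either comparison. MYB came nearest in induced against uninduced CDAN1 shRNA clones, at −0.27 ± 0.06 with the block (adjusted p = 0.0896, edgeR). Its difference from the NT response was −0.06 ± 0.11 with the block, which did not pass (adjusted p = 1, edgeR). For the other 9 factors the difference from the NT response ranged from −0.11 ± 0.13 for ZFPM1 to 0.67 ± 0.33 for GFI1B with the block (adjusted p = 1 for each, edgeR).

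Doxycycline over all 3 clones, a comparison added after the results were seen, called 0.128% of genes with the clone as a term and 0 of the 10 factors. MYB in the induced library stood at 81.0% of its uninduced level in c1 (95% counting interval 77.8% to 84.2%), at 84.8% in c2 (81.5% to 88.2%) and at 86.2% in NT (83.0% to 89.5%). The joint estimate was −0.25 ± 0.04 (adjusted p = 0.0944, edgeR), lower in 3 of 3 clones; DESeq2 gave an adjusted p of 0.00649, edgeR without the filter on low counts 0.0146, and edgeR with unmatched transcripts kept 0.502. The NT clone, where CDAN1 was not depleted, is among the 3. These intervals cover counting error only.

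KLF1 was not called either. Its induced level was 128.8% of the uninduced one in c1, 105.5% of it in c2 and 111.5% of it in NT, with a joint estimate of 0.20 ± 0.06 (adjusted p = 0.240, edgeR). The ratio of KLF1 to MYB in TPM, also added after the values were seen, was 2.79 in induced and 1.76 in uninduced c1, 2.14 in induced and 1.68 in uninduced c2, and 2.45 in induced and 1.82 in uninduced NT. The 3 induced values do not overlap the 3 uninduced ones, and no test was made.

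The induced level of TAL1 was 115% of the uninduced one in c1, 112.7% of it in c2 and 105.9% of it in NT (0.15 ± 0.04, adjusted p = 0.238, edgeR), and that of GATA2 was 123.2%, 109% and 102.3% in c1, c2 and NT (0.15 ± 0.06, adjusted p = 0.315). For LMO2 these were 87.8%, 91.8% and 94.8% (−0.13 ± 0.05, adjusted p = 0.347). NFE2 lay between 103.8% and 104.1% and LDB1 between 100% and 106%. GATA1, ZFPM1 and GFI1B differed in sign among clones. For GATA1 the share was 107.5% in c1, 93.96% in c2 and 91.97% in NT, and for GFI1B 109.7%, 113.7% and 70.2%, the last from few reads.

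**Figure D5:**
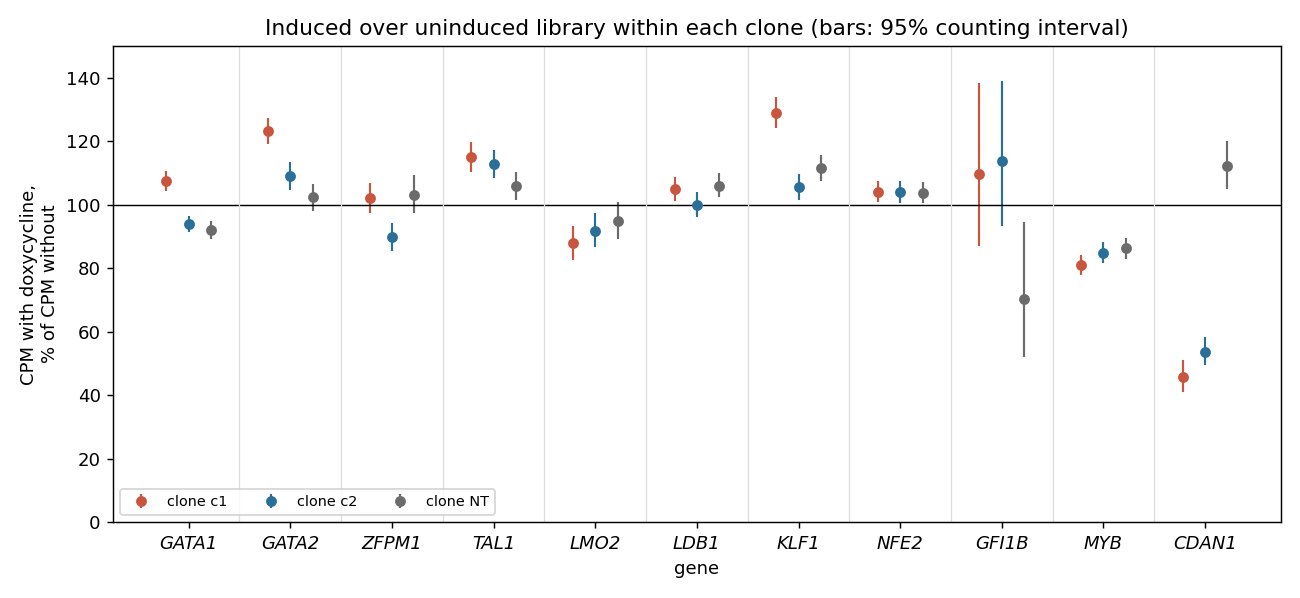
Points give CPM in the induced library as a percent of CPM in the uninduced library of the same clone, with 95% counting intervals, for the 10 factors and CDAN1. MYB lies at 81.0% to 86.2% in all 3 clones, and CDAN1 at 45.8% and 53.7% in c1 and c2 but at 112.3% in NT.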

How the data were processed

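RNA of 6 K562 libraries, 1 per clone and doxycycline state, was sequenced after NEBNext Ultra library preparation, per the labels' protocols. Groups were taken from the sample titles; the deposited tables of clone c2 are named for a clone C3, and the titles were followed. The authors' tables give an estimated count and a TPM value per transcript, per the file headers, from Salmon 1.5.2 on GRCh37, per the submitters' processing notes. No source used here gives strand, trimming or annotation, so reads of overlapping antisense genes cannot be told apart.

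Of 167268 transcripts, 151039 (90.3%) matched GENCODE by identifier. Adding up their deposited estimated counts gave 33367 genes, with sums taken to the nearest integer; unmatched transcripts, 6.23% to 6.5% of the reads of a library, were left out. Coordinates are on GRCh38. A filter for low counts (filterByExpr, smallest group 2) kept 14075 genes. CPM was TMM-scaled with a prior count of 2 for log2 values.

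Tests used edgeR 4.0.16 in R 4.3.3 (quasi-likelihood, two-sided, Benjamini-Hochberg over all 14075 genes, threshold 0.05). The SE after ± is approximate: the absolute log2 fold change divided by the square root of the F statistic of its test. edgeR does not report an SE for this test. Some of the comparisons were also run on simulated counts with set changes and without clone-to-clone variation. Those runs do not give the power of the tests here. Clones were compared with the doxycycline state as a term. The clone pairs the libraries: deviations of its induced and uninduced library correlated at 0.679 (c1), 0.741 (c2) and 0.608 (NT), so fits with the clone as a block are given too. DESeq2 1.42.0 and limma 3.58.1 (voom) were alternatives, as were RLE scaling, no filter, length offsets, unmatched transcripts kept and leaving out each library. Intervals of induced over uninduced CPM are counting intervals at 95%.

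The 10 genes and the 12 gene lists were chosen with earlier results of these data known. From each list, up to 4 genes called between clones with the largest change are named. Likeness was sought for genes with a log2 CPM range of 0.5 or more, and starts within 500 bases were joined.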

Additional observations from a re-analysis of the deposited data

How the results depend on the processing

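Of 210 recomputed values of the 10 factors between clones, 185 kept their direction and their side of the threshold. A further 21 kept the direction but no longer passed, and 4 changed sign. Only values called in the main fit can be among the 21, and many of the 210 were not called there. Of 280 in the other comparisons these were 272, 0 and 6, and 2 newly passed. That 0 was fixed in advance, as none of the 10 was called there in the main fit. Fits with 1 library left out are not in these counts. Counts of genes called moved by more than 1.5 times with a length offset (2369 in c1 against NT, 1793 in c2 against NT, 2312 in c2 against c1) and with unmatched transcripts kept (2021, 1164 and 1825), which adds features to the test. DESeq2 called 22 genes in knockdown against all controls, 2 in induced against uninduced CDAN1 shRNA clones and 5 in their response minus that of NT, where edgeR called 0; with the clone as a replicate block edgeR called 6, 141 and 19. The block changed no call of the 10 factors. For doxycycline over all 3 clones (18 called), the counts were 11 with RLE scaling, 248 without the filter, 143 with DESeq2, and 0 with length offsets, with unmatched transcripts kept and without the block. The median level of the 10 factors was 94.5 TPM over all and 68.2 TPM over coding transcripts. The cause of these shifts was not tested.

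With the block, knockdown against all controls changed sign for ZFPM1 (−0.064), LDB1 (0.035), KLF1 (0.22) and NFE2 (0.057), none called. The estimate with the block compares induced with uninduced c1 and c2 only. GFI1B with doxycycline over all 3 clones was 0.015 with voom and 0.011 without the block. With length offsets, GATA1 in c1 against NT was 0.017, LMO2 in c2 against c1 −0.057 and MYB in c2 against c1 0.056; with unmatched transcripts kept, GATA1 in c1 against NT was 0.0029. With 1 library left out at a time, calls ranged over 2224 to 3654 in c1 against NT, 1421 to 3496 in c2 against NT, 1973 to 3953 in c2 against c1, 3 to 166 for doxycycline over all 3 clones and 0 to 0 in the other 3 comparisons; a clone left with 1 library is assumed to vary like the others. Values of uncalled genes that crossed 0 in this way follow, as log2 fold changes. In knockdown against all controls, the range was KLF1 −0.19 to 0.13, TAL1 −0.0073 to 0.12, GATA2 −0.15 to 0.62, ZFPM1 −0.041 to 0.26, LDB1 −0.23 to 0.011, NFE2 −0.15 to 0.038. In induced against uninduced CDAN1 shRNA clones, the range was GATA1 −0.093 to 0.13, ZFPM1 −0.22 to 0.087, GFI1B −0.073 to 0.39, GATA2 −0.20 to 0.57, LDB1 −0.087 to 0.15, NFE2 −0.038 to 0.15. In the response of these clones minus that of NT, the range was LDB1 −0.17 to 0.070, GATA2 −0.23 to 0.54, KLF1 −0.091 to 0.22, NFE2 −0.092 to 0.10, ZFPM1 −0.26 to 0.041. In induced against uninduced over all 3 clones, the range was GATA1 −0.11 to 0.014, GFI1B −0.16 to 0.17, ZFPM1 −0.061 to 0.045. In c1 against NT, the range was GATA1 −0.11 to 0.10. In c2 against c1, the range was GATA1 −0.0012 to 0.21. Of the clone calls, KLF1 and TAL1 in c1, ZFPM1 in c2, and LDB1 and NFE2 in c2 against c1 no longer passed with length offsets or with unmatched transcripts kept, and KLF1 and GFI1B in c2 no longer passed with unmatched transcripts kept. Without a term for doxycycline, TAL1, KLF1 and MYB in c1, ZFPM1 and MYB in c2, and LDB1 and NFE2 in c2 against c1 no longer passed, nor did ZFPM1 in c2 and NFE2 in c2 against c1 with DESeq2. The depth limits GFI1B most, at 79 to 222 reads.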
